A study of Mus musculus with 6 samples.

Results

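The genes described here encode the enzymes that write, copy and remove DNA methylation, in mouse fibroblasts exposed to a drug that acts on some of these enzymes. They were chosen by name alone, as every probe of the array whose target was called DNMT1, DNMT3A, DNMT3B, DNMT3L, UHRF1, UHRF2, TET1, CXXC6 (an older name of Tet1), TET2 or TDG. Of these 10 names, 8 were matched among the 30854 targets of the array, on 17 of its 45281 probes. TET1 and TET2 themselves were matched by 0 probes, so Tet1 was read under its older name, and probes that the reference assigns to Tet2 and Tet3 under a clone name are described beside the others.

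All plates came from 1 short-term explant of cancer-associated fibroblasts, the stromal fibroblasts around a carcinoma, grown from a pancreatic tumour of a KPC-Brca1 mouse. The sources used here do not give the alleles behind that name, the strain or the age of the mouse. One group of 3 plates was exposed to decitabine (5-aza-dC, here DAC) at 2 micromolar for 48 hours, and the other group of 3 plates stayed untreated. The stated aim of the series is to find genes that DAC activates in these cells. Since the plates share one explant, p-values reflect plate-to-plate spread alone, which may be technical.

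In mammals DNMT1 copies methylation onto the new DNA strand after replication. UHRF1 finds the half-methylated sites and brings DNMT1 to them. DNMT3A and DNMT3B place methylation at new sites, and DNMT3L, which has no catalytic activity of its own, helps them in germ cells and early embryos. TET proteins oxidise methylated cytosine, and TDG cuts out the oxidised bases so that repair can replace them. Decitabine is built into DNA in place of deoxycytidine, where it holds methyltransferase protein in a covalent bond. The arrays measured transcripts, so neither the proteins nor the methylation of any site was measured.

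Promoters of some of the genes that fell, rose or missed the threshold are printed here to show how rich in CpG each is. A link between CpG content and a change with DAC was not tested. Each sequence is the 250 bases before 1 RefSeq transcription start of the mouse build GRCm38.p6, with its CpG sites in capitals.
Dnmt1, chr9:20952624-20952873, minus strand: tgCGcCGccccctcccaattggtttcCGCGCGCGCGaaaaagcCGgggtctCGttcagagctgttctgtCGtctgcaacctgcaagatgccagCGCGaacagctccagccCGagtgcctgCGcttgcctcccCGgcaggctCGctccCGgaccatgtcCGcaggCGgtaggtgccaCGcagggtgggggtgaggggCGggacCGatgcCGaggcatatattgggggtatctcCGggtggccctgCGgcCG
Uhrf1, chr17:56304063-56304312, plus strand: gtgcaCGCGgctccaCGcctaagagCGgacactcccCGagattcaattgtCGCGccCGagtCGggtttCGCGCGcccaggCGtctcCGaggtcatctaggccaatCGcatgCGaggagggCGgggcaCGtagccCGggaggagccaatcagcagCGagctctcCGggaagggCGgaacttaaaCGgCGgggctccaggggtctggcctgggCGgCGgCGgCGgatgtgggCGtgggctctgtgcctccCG
Uhrf2, chr19:30030263-30030512, plus strand: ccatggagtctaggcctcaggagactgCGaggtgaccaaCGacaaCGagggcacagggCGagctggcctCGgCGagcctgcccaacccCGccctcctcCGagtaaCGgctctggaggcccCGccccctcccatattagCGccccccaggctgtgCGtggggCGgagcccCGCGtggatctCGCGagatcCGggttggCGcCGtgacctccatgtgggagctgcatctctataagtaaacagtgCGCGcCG
Dnmt3b, chr2:153649199-153649448, plus strand: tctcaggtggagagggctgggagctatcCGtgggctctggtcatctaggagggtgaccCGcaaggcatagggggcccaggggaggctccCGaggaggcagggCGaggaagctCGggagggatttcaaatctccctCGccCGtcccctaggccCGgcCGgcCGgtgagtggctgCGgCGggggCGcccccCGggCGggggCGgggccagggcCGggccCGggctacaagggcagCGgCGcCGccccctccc
Dnmt3l, chr10:78042037-78042286, plus strand: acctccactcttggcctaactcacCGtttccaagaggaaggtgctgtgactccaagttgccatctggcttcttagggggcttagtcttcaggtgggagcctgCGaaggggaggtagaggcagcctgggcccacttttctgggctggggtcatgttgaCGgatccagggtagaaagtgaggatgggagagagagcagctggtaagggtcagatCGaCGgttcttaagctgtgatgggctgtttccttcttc
The Dnmt1 window held 26 CpG sites, the Uhrf1 window 30, the Uhrf2 window 23 and the Dnmt3b window 21, against a median of 6 over 32851 windows of the same length. The Dnmt3l window held 5 CpG sites, and the windows at its other RefSeq starts held 4 and 3. Of the genes not printed, the Tet1 window held 15 sites, Tdg 19, Tet2 51 and Tet3 17. The Dnmt3a windows held 38, 40 and 15. Of all windows, 55.6% held at least 5 CpG sites and 9.6% at least 26. Dnmt1 has 2 further RefSeq starts, whose windows held 2 and 7 sites, and the other Uhrf1 window held 10. The Dnmt1 window printed lies downstream of those 2 further starts, so transcripts from them would run through it. The starts used in these cells were not measured. A search on both strands for the E2F-type spellings TTTCGCGC, TTTGGCGC, TTTCCCGC and TTTGCCGC, which differ from each other only in their middle pair of letters, found TTTCGCGC in both the Dnmt1 and the Uhrf1 window printed. It lay 219 bases before the Dnmt1 start on the opposite strand and 185 bases before the Uhrf1 start on the same strand. Some E2F factors are activators of S phase genes, and binding of any E2F factor was not measured. TTTCGCGC occurred in 0.26% of all windows and any of the 4 spellings in 1.9%. None of the 4 was found in the other windows of Dnmt1 and Uhrf1. The same held for every window of Uhrf2, Dnmt3a, Dnmt3b, Dnmt3l, Tet1, Tet2, Tet3 and Tdg. A link between these spellings and a change with DAC was not tested.

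Each array reported a mean bead intensity per probe with a detection p-value, and a probe counted as detected at a detection p under 0.01. Untreated arrays detected 16254 to 17180 probes each, DAC arrays 16205 to 16528. Arrays of one group correlated at 0.993 to 0.996 over the tested probes, and arrays of different groups at 0.974 to 0.980. Of 18 fibroblast markers 16 were bright enough to be tested, with Col1a1, Vim and Pdgfra detected on all 6 arrays. The leukocyte gene Ptprc, the epithelial genes Epcam and Cdh1 and the endothelial genes Pecam1 and Cdh5 were detected on no array. In the full lists this held for 7 of the 15 leukocyte markers with a probe, 5 of 12 epithelial and 8 of 10 endothelial markers. Other markers of these lists were detected on all 6 arrays, among them Lyz1, Krt8, Krt18 and Eng. Absence of signal on a probe is no proof of an absent transcript, and the probe of the replication gene Pcna was itself detected on no array. The number of arrays limits the precision, and the sources used here do not give slide positions.

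Of the 17 probes, 11 were detected on at least 3 arrays and entered the test, and 6 were detected on no array. The 11 probes read 7 genes. Those 6 were all 3 probes of Dnmt3a and 1 probe each of Dnmt3b, Uhrf1 and Tdg. Each of the latter 3 genes had another probe that was detected on all 6 arrays. Their intensities lay between 27.1 and 40.3 on every array, with detection p-values of 0.203 to 1. Each probe was read from 19 to 71 beads per array, and the standard error over beads was at most 7.32% of the intensity.

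**Figure D1:**
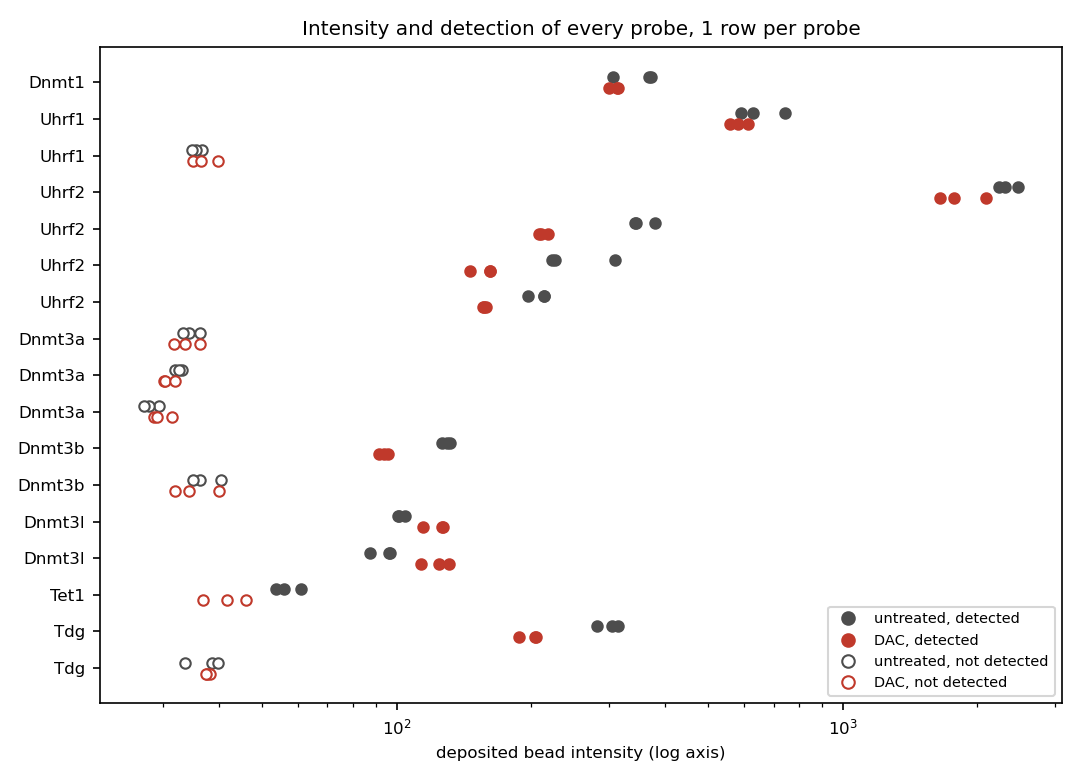
Deposited bead intensity (horizontal log axis, arbitrary units) of all 17 probes, 1 row per probe, on 3 untreated arrays (grey) and 3 DAC arrays (red), with filled points for a detection p under 0.01. The 3 Dnmt3a probes and 1 probe each of Uhrf1, Dnmt3b and Tdg are open on all 6 arrays, and the Tet1 probe is filled on the untreated arrays alone.

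Differences between DAC and untreated arrays were tested with limma on background-corrected, quantile-normalised log2 intensities, with p-values adjusted by Benjamini-Hochberg over all 16883 tested probes. At an adjusted p under 0.05, 8 of the 11 probes were called, 2 higher and 6 lower with DAC. Over all tested probes, 27.7% were called, 13.1% higher and 14.5% lower (2220 and 2454 probes). Without between-array normalisation 1266 probes were higher and 4224 lower, and 2 and 7 of the methylation gene probes. The 2 higher probes both read Dnmt3l, and the 6 lower probes read Uhrf2, Dnmt3b, Tet1 and Tdg. The groups did not overlap for 9 of the 11 probes, against 41.8% of all tested probes. The probe of Tet1 entered the test only through the group in which it was high, so these counts are a description of the tested probes and not of all 17. Changes with DAC are given on the log2 scale as DAC minus untreated.

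**Figure D2:**
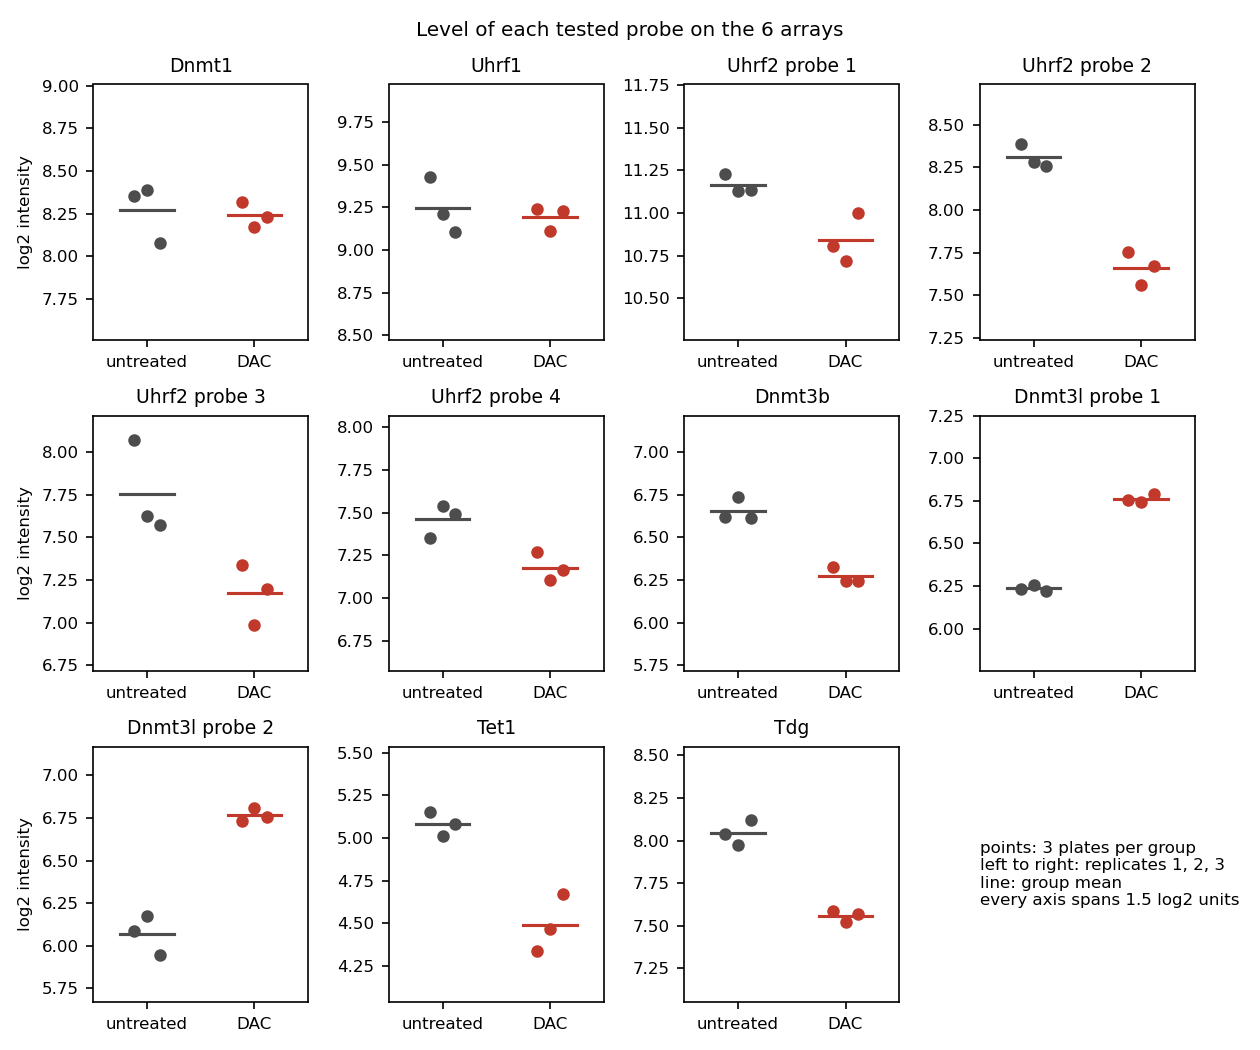
Normalised log2 intensity of the 11 tested probes on each array, untreated (grey) and DAC (red), with replicates 1, 2 and 3 from left to right and a line at the group mean (n = 3). The points of the 2 groups mix for Dnmt1 and Uhrf1 and are apart in the other 9 panels, upward with DAC in both Dnmt3l panels and downward in the rest.

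The maintenance pair, Dnmt1 and Uhrf1, did not pass the test. The deposited intensity of Dnmt1 was 371.9, 368.7 and 306.0 on the untreated arrays and 299.7, 311.7 and 313.2 on the DAC arrays. Its log2 level after normalisation was 8.27 ± 0.17 untreated and 8.24 ± 0.07 with DAC (SD, n = 3 per group). Untreated replicate 3 lay below all DAC arrays on that scale, and the groups overlapped. The log2 change was −0.03 with a 95% interval of −0.27 to 0.21 (limma adjusted p = 0.861).

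Uhrf1, measured by 1 of its 2 probes, showed intensities of 743.3, 630.3 and 591.7 untreated and 557.7, 583.8 and 614.5 with DAC. The untreated arrays ranged more widely than the DAC arrays, and after normalisation the groups overlapped. Its log2 level was 9.25 ± 0.16 untreated and 9.19 ± 0.07 with DAC, a change of −0.05 with a 95% interval of −0.29 to 0.18 (limma adjusted p = 0.758). Without between-array normalisation, where the median change of all tested probes was −0.135, the change was −0.18 for Dnmt1 and −0.16 for Uhrf1, and neither was called (limma adjusted p = 0.278 and 0.349).

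Uhrf2, the paralog of Uhrf1, fell. UHRF2 shares the domain layout of UHRF1 and is known as a reader of oxidised methylcytosine. All 4 of its probes were detected on all 6 arrays, and on each of them every DAC array lay below every untreated array. The brightest probe gave intensities of 2475.5, 2317.4 and 2239.6 untreated and 1653.5, 1776.6 and 2096.0 with DAC. DAC replicate 3 lay closest to the untreated arrays. The log2 change of this probe was −0.32 ± 0.11 (SE; limma adjusted p = 0.0354).

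The next probe gave 380.3, 342.9 and 344.4 untreated and 208.9, 210.3 and 218.6 with DAC. Its change was the largest of the 4 in this fit. It fell from 8.31 ± 0.07 to 7.66 ± 0.10 (SD, n = 3), which is 1.56-fold (limma adjusted p = 0.000313). The third probe gave 309.2, 226.6 and 223.3 untreated and 162.1, 146.3 and 162.0 with DAC, with untreated replicate 1 above the rest. Its log2 change was −0.58 ± 0.14 (SE; limma adjusted p = 0.00621). The faintest probe gave 197.2, 213.7 and 213.7 untreated and 156.4, 157.1 and 158.8 with DAC. The DAC arrays of that probe were close together, but its log2 change of −0.28 ± 0.10 missed the threshold (limma adjusted p = 0.0529).

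Where the 4 probes lie in the Uhrf2 transcripts was not analysed here. Among the 3 called probes, the brightest lost its call most often. Its adjusted p was 0.241 with 75th percentile scaling, 0.0595 with all probes tested, and 0.0637 to 0.105 without any of untreated replicates 1, 2 and 3 or DAC replicates 1 and 2. With all probes tested the third probe also missed the threshold (adjusted p = 0.0771). The call of the second probe held under all 16 other settings run for it (adjusted p at most 0.00271).

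The de novo methyltransferase genes could be followed only in part. Dnmt3a was at background on all 3 of its probes, with intensities of 27.1 to 36.3, so no change can be stated for it. Dnmt3b was detected on all arrays by 1 of its 2 probes, at 129.8, 132.0 and 126.6 untreated and 91.4, 95.5 and 93.9 with DAC. The 2 groups were narrow and well apart. Dnmt3b fell from 6.66 ± 0.07 to 6.27 ± 0.05 on the log2 scale (SD, n = 3), a 1.31-fold difference (log2 change −0.39 ± 0.10, SE; limma adjusted p = 0.00959). Its call held under all 17 other settings run for it, with log2 changes of −0.564 to −0.271.

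Dnmt3l, the cofactor without catalytic activity, was the only one of the 7 tested genes that rose. Both of its probes were detected on all 6 arrays. The first gave intensities of 104.3, 100.9 and 101.3 untreated and 114.4, 126.5 and 127.4 with DAC, and the second 96.6, 96.3 and 87.1 untreated and 113.4, 130.9 and 124.8 with DAC. Every DAC array lay above every untreated array on both probes, already before normalisation. DAC replicate 1 had the lowest intensity of the DAC arrays on both.

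After normalisation the first Dnmt3l probe rose from 6.24 ± 0.02 to 6.76 ± 0.02 (SD, n = 3), 1.44-fold (log2 change 0.52 ± 0.09, SE; limma adjusted p = 0.000979). The second rose from 6.07 ± 0.11 to 6.77 ± 0.04, 1.62-fold (log2 change 0.69 ± 0.10, SE; limma adjusted p = 0.000175). Of all tested probes, 5.95% rose more than the first and 3.62% more than the second. The calls of both held under every other setting run for them, with log2 changes of 0.342 to 0.533 and 0.481 to 0.744. The reference also holds the pseudogenes Dnmt3a-ps1, Dnmt3b-ps1 and Dnmt3l-ps1. Probe sequences were not used here, so which copy a Dnmt3 probe reads is uncertain.

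**Figure D3:**
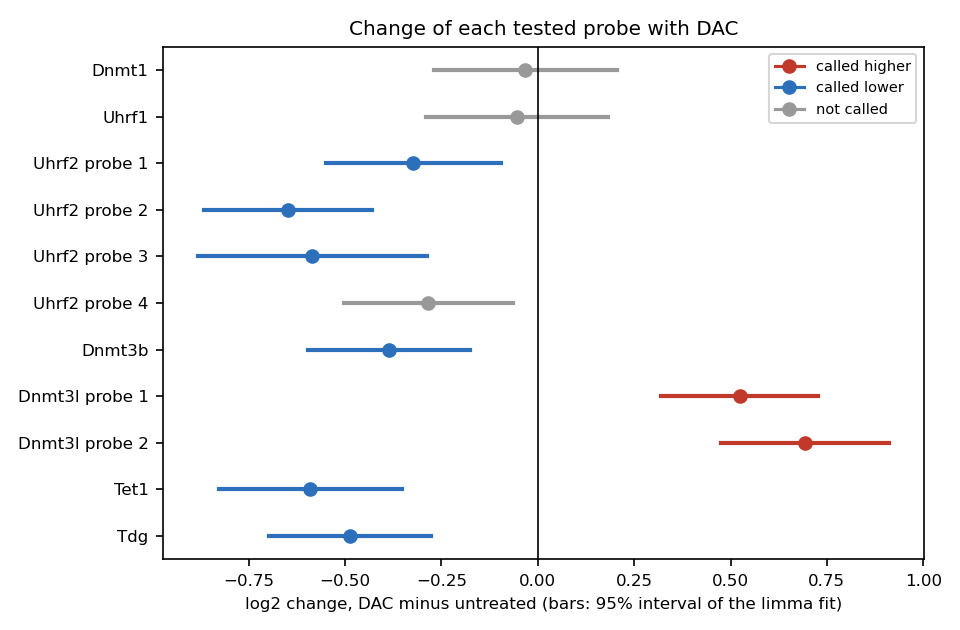
Log2 change (DAC minus untreated, horizontal axis) of the 11 tested probes with the 95% interval of the limma fit over 3 plates per group, coloured by the call at an adjusted p under 0.05. Both Dnmt3l probes lie right of 0, the intervals of Dnmt1 and Uhrf1 span 0, and the other probes lie left of it, with Uhrf2 probe 4 just short of the threshold.

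Among the genes of methylation removal, Tet1 fell below detection. Its intensity was 61.2, 53.7 and 56.0 untreated, with detection p-values of 0.00427 to 0.00534, and 36.8, 41.7 and 45.9 with DAC, with detection p-values of 0.0523 to 0.379. Every untreated array thus read Tet1 just above background and no DAC array did. The fitted change was −0.59 ± 0.11 (SE; limma adjusted p = 0.00127), with measured means of 5.08 untreated and 4.49 with DAC. The probe entered the test only through the untreated group, where it was high, so that p is a description and not independent support. DAC arrays give only an upper limit for Tet1. The untreated mean, 5.08 ± 0.07 (SD, n = 3), lay 1.05-fold above 5.01, the mean of the lowest detected signals of the DAC arrays. Untreated replicate 2 was itself at 5.01, so a fall beyond that limit is not established. The fitted change of Tet1 was −0.263 with an offset of 50, a setting that shrinks the changes of faint probes.

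Tet2 was matched through the reference under a clone name, on 2 probes, a choice made after the values were seen. The first gave 71.9, 69.8 and 70.8 untreated and 48.0, 51.2 and 60.5 with DAC, and was detected on 3 untreated arrays and 1 DAC array. It was lower with DAC, with a log2 change of −0.49 ± 0.12 (SE; limma adjusted p = 0.00942), a call that was lost with all probes tested (adjusted p = 0.0690). The second gave 66.0, 56.0 and 50.5 untreated and 56.3, 50.2 and 46.9 with DAC, and its groups overlapped (log2 change −0.13, limma adjusted p = 0.545). The 2 probes of Tet2 therefore disagreed on the call. The 3 probes matched to Tet3 lay between 31.5 and 42.6 and were detected on no array.

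Tdg, the glycosylase that acts after the TET proteins, fell. The probe that detected it gave 303.8, 282.0 and 313.5 untreated and 187.7, 204.9 and 204.8 with DAC. The lowest untreated array was well above the highest DAC array. Tdg went from 8.04 ± 0.07 to 7.56 ± 0.03 on the log2 scale (SD, n = 3), a 1.40-fold fall (log2 change −0.49 ± 0.10, SE; limma adjusted p = 0.0021). Its log2 change was −0.640 to −0.417 over 17 other settings, and the call held under each.

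Whether these genes changed unequally was tested on the difference of the log2 levels of their brightest tested probes within each array, with exact two-sided permutation tests over the 6 arrays. With 3 arrays against 3, the smallest possible p is 0.1. The change of Uhrf1 minus that of Dnmt1 was −0.02 (exact p = 0.9), with overlapping groups. Dnmt3b changed by −0.35 relative to Dnmt1 and by −0.33 relative to Uhrf1, both without overlap between the groups (exact p = 0.1, the smallest possible). Among pairs added after the values were seen, Dnmt3l changed by 0.91 relative to Dnmt3b and Uhrf2 by −0.27 relative to Uhrf1, again without overlap and at the smallest possible exact p. The other Uhrf2 probes, whose own log2 changes were −0.65, −0.58 and −0.28, were not set against Uhrf1, so the size of that difference is that of 1 probe. Adjusted over the 5 pairs, the p of these 4 was 0.125, so no pair could pass a threshold of 0.05. The separation from Uhrf1 depended on the processing. On all 6 arrays the exact p for Dnmt3b was 0.2 without background correction, and for Uhrf2 0.2 without between-array normalisation. With 1 array left out the test has fewer splits, 3 against 2, so its p cannot be set beside that of 3 against 3. For Dnmt3b it was 0.2 without DAC replicate 1, 2 or 3. For Uhrf2 it was 0.2 without untreated replicate 2 or 3 and without DAC replicate 1 or 2.

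The probes whose level over the 6 arrays followed each gene most closely were sought among 14649 tested probes of other named genes. For Dnmt1 they were those of Luc7l2, Dolpp1 and Efr3a (Pearson r of 0.995, 0.992 and 0.986), whose log2 changes were −0.05 to −0.04. For Uhrf1 they were Zfp281, Kiz and Braf (0.986, 0.984 and 0.980). For Dnmt3b they were Pawr, Bves and Ung (0.996, 0.995 and 0.993), with log2 changes of −0.72, −1.33 and −0.75. An r above 0.95 was reached by 17 probes for Dnmt1, 25 for Uhrf1 and 383 for Dnmt3b. The 6 arrays form 2 groups, so r for a gene that changed, such as Dnmt3b, includes the group difference. Dnmt1 and Uhrf1 were not called, so their r rests mainly on spread between plates. The highest of 14649 values over 6 arrays can be high by selection, so these lists do not show shared regulation.

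Genes that work with these enzymes were counted by their brightest tested probe. Over all 11538 genes tested, 28% were called, 14.1% higher and 13.9% lower, and the median log2 change was 0.003. Of 14 tested partners of DNMT1 and UHRF1, 1 was higher and 4 were lower, with a median of −0.20. Pclaf, a PCNA-binding protein that helps to load DNMT1 at replicated DNA, was 1.75-fold lower (limma adjusted p = 7.99e-05). Cdca7, a partner of the remodeller HELLS, was 1.39-fold lower, Ehmt2, a histone H3 lysine methyltransferase, 1.38-fold and Chaf1a, a chromatin assembly factor subunit, 1.32-fold. The retinoblastoma gene Rb1 was 1.36-fold higher, a call lost without between-array normalisation, where 7 partners were lower. With the mean of all probes per gene, 7 were lower too. Usp7, a deubiquitinase that binds DNMT1 and UHRF1, did not pass (log2 change −0.18, limma adjusted p = 0.180).

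Of 15 tested genes that guide the de novo enzymes or set repressive chromatin, 1 was higher and 5 were lower, with a median of −0.13. The Polycomb methyltransferase gene Ezh2 was 1.69-fold lower and Zfp57, which protects methylation at imprinted sites, 1.64-fold. Trim28, the corepressor of zinc finger proteins, was 1.39-fold and the histone methyltransferase gene Nsd2 1.36-fold lower. Eed, a further Polycomb subunit, was 1.3-fold higher, a call that was lost with all probes tested, without between-array normalisation, and without untreated replicate 2 or DAC replicate 2 or 3. The 5 falls were 3 without untreated replicate 3 and 3 with the mean of all probes per gene. Of 15 tested readers of methylated DNA and NuRD subunits, 1 was higher and 2 were lower. These were Zbtb38 (1.51-fold higher) against Chd3 and Rbbp7 (1.41-fold and 1.40-fold lower). The 2 falls became 5 without DAC replicate 2 or without between-array normalisation, and 1 without DAC replicate 1 or with 75th percentile scaling. With all probes tested none of the 3 was called.

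Of 17 tested genes of demethylation and base excision repair, 1 was higher and 7 were lower, with a median of −0.21. Ung, the uracil glycosylase, was 1.68-fold lower, Idh1, an enzyme that makes the TET cosubstrate, 1.52-fold, and the strand break sensor Parp1 1.35-fold. Gadd45b was 1.31-fold lower while Gadd45g was 1.39-fold higher. The 7 falls were 4 without untreated replicate 3, 4 without DAC replicate 1 and 3 without DAC replicate 3, when 2 genes were higher. In a list of genes in or near the cycle that supplies the methyl donor, 6 of 14 tested genes were lower and none was higher. The median was −0.30. The lower genes included Ahcyl1, a relative of the cycle gene Ahcy (1.51-fold), and the mitochondrial serine hydroxymethyltransferase gene Shmt2 (1.40-fold). The folate enzyme Mthfd1 (1.29-fold) and Mtap, which salvages methionine (1.28-fold), were also among them.

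**Figure D4:**
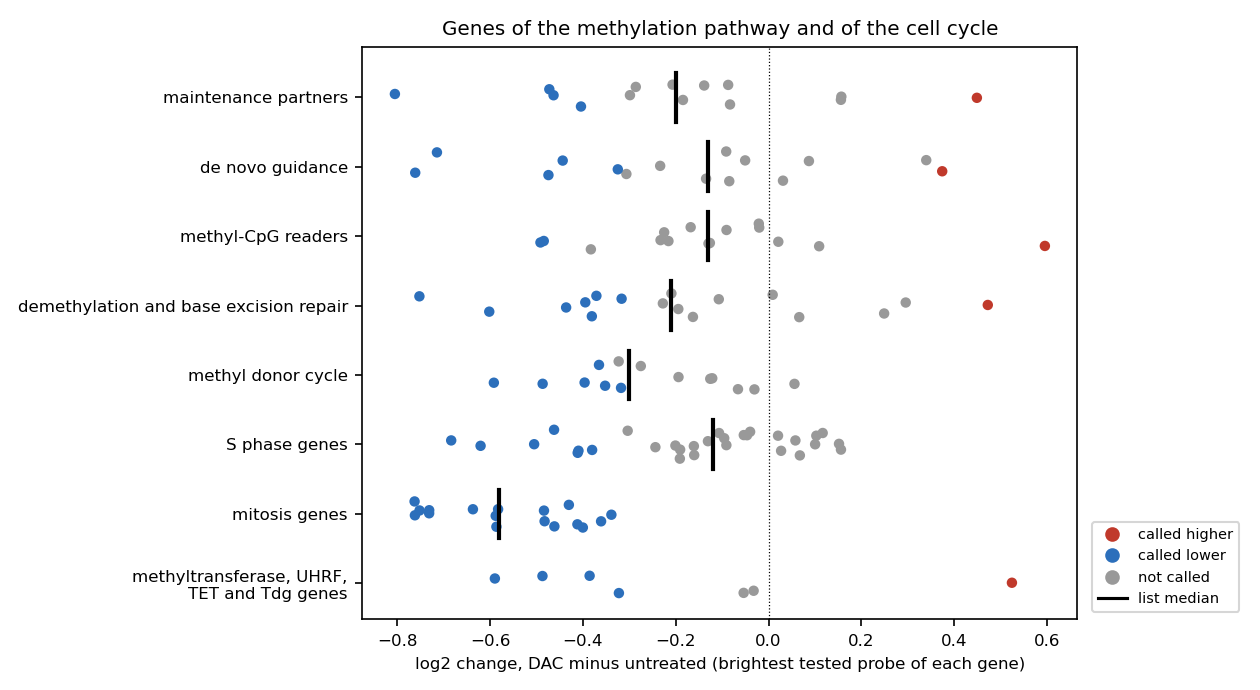
Log2 change (DAC minus untreated, horizontal axis) of each tested gene in 7 lists and, in the bottom row, of the 7 tested methyltransferase, UHRF, TET and Tdg genes, coloured by call, with the list median as a bar. All 17 tested mitosis genes lie left of 0 and were called, whereas 23 of 30 tested S phase genes were not called.

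Dnmt1 and Uhrf1 are usually expressed with the genes of S phase, so the cell cycle lists are given beside them. Of 30 tested S phase genes, 7 were lower and none was higher, with a median of −0.12. The helicase subunit genes Mcm6 and Mcm2 were 1.61-fold and 1.54-fold lower, the flap endonuclease gene Fen1 1.42-fold and thymidine kinase Tk1 1.38-fold. Without between-array normalisation 11 were lower. E2f1, Cdc45 and Ccne1 did not pass, with log2 changes of −0.10, −0.05 and 0.06. Of 17 tested mitosis genes, 17 were lower, with a median of −0.58. Kif2c and Mki67 were each 1.7-fold lower, Bub1b 1.68-fold and Ccnb1 1.66-fold. Bulk arrays cannot tell fewer cells in a phase from less RNA per cell. The part of the cell cycle in the changes of Uhrf2, Dnmt3b, Tet1 and Tdg was not tested.

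Markers of other cells moved with DAC as well. Of 8 tested leukocyte markers, 6 were higher and none was lower. Cd53 and Csf1r, which are 2 of the 6, were detected on 0 untreated and 3 DAC arrays and so entered the test only through the DAC group. Among probes detected on all arrays, 4 were higher. The summed intensity of the list was 1836 to 1932 untreated and 2212 to 2395 with DAC. Laptm5, a lysosomal membrane protein of blood cells, was 2.29-fold higher and the lysozyme gene Lyz1 1.72-fold. Without DAC replicate 2 or 3, 3 were called. Of 16 listed leukocyte markers, 15 had a probe, and 7 of these were detected on no array, among them Ptprc, Aif1 and Tyrobp. Of 7 tested epithelial markers, 2 were higher and 1 was lower (2 without DAC replicate 2), with sums of 2252 to 2379 untreated and 1883 to 2298 with DAC, and 5 of the 12 listed markers were detected on no array. Spint1, a protease inhibitor, was 2.5-fold and keratin Krt7 1.72-fold higher, while keratin Krt19 was 2.3-fold lower. Of 10 endothelial markers, 8 were detected on no array and 1 of 2 tested was lower, with sums of 1524 to 1629 and 1328 to 1601. Of 16 tested fibroblast markers, 1 was higher and 3 were lower, with sums of 154600 to 161800 and 138500 to 158800. This balance depended on the scaling, with 3 higher and 1 lower under 75th percentile scaling and 1 higher and 5 lower under cyclic loess or without background correction. Without DAC replicate 1, 1 was higher and 1 lower. The part of these shifts in the changes of the methylation genes was not tested.

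**Figure D5:**
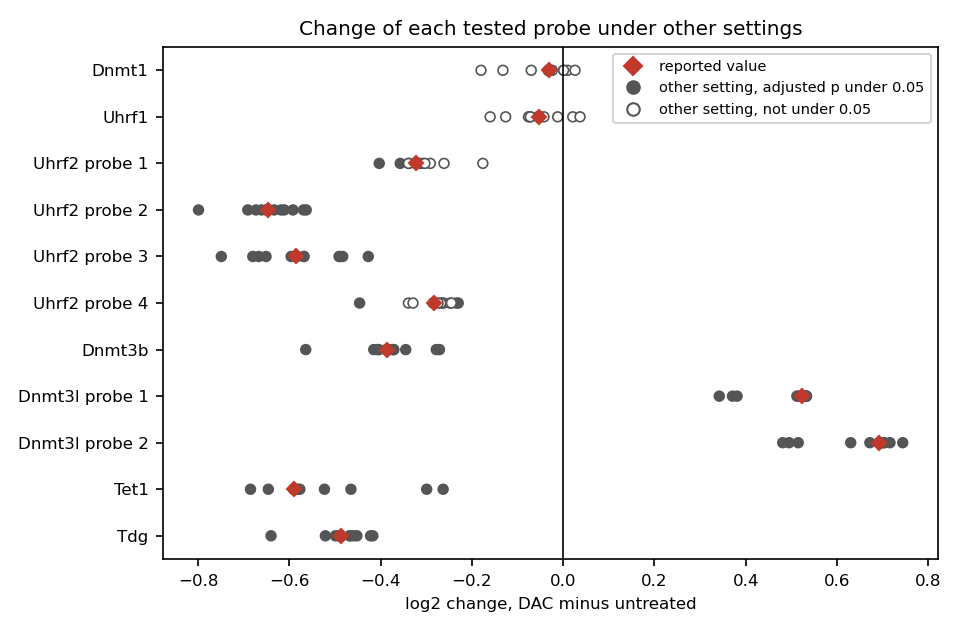
Log2 change (DAC minus untreated, horizontal axis) of the 11 tested probes as reported (red diamonds) and under each other setting run (circles, filled at an adjusted p under 0.05). Dnmt3l stays right of 0 and Uhrf2, Dnmt3b, Tet1 and Tdg left of it under every setting shown, and the values of Dnmt1 and Uhrf1 fall on both sides of 0.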

How the data were processed

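Expression was measured on Illumina bead arrays of biotin-labelled cRNA from total RNA, per the labels. The deposited table holds a bead intensity on a linear scale, whose totals differ between arrays. Next to it stand, per the file headers, a detection p-value, the standard error over beads (taken as a score) and a count of beads. The sources used here name no scanner software. A further deposited value table was not used here. Columns were assigned by the sample names in the labels.

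Intensities were corrected by normexp from the detection p-values with an offset of 16, and quantile normalized on the log2 scale (limma 3.58.1, R 4.3.3). The test took the 16883 probes whose detection p was under 0.01 on 3 or more arrays, with lmFit, eBayes and Benjamini-Hochberg adjustment over all of them. Target names were matched to the RefSeq table of GRCm38.p6, 27760 probes by symbol and 7994 by synonym, and promoter sequences are RefSeq's. Alternatives changed the background correction, offset, normalization, filter, probe summary, variance model and replicate block, or left out 1 array.

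The genes, 11 lists and tests were chosen with earlier results of these data known. All methylation genes are given with every probe. From each list, up to 4 called genes per direction with the smallest p could be named, with up to 3 undetected ones, and by likeness the 3 probes of highest r. Genes named that missed the threshold, and Tet2 and Tet3, were picked with their values in view. Simulated data served to test the fit.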

Additional observations from a re-analysis of the deposited data

How the results depend on the processing

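Over 18 other settings (background correction, offset, normalization, filter, 1 value per gene, variance model, replicate block and each array left out), the counts of called methylation gene probes ranged from 4 to 7 lower and 1 to 2 higher, with 1 higher where each gene had 1 value (brightest probe or mean of probes), since the 2 Dnmt3l probes then become 1. The lower count was 4 with all probes tested, with 1 value per gene, and without any one untreated array. With 1 value per gene the Uhrf2 probes also become 1. The Tet1 probe was tested under 13 other settings. It could not be tested without any one untreated array or with detection required on all arrays. Without between-array normalization the calls over all probes were 1266 higher and 4224 lower. The cause was not tested. The sign of 2 changes that missed the threshold turned. Dnmt1 had a log2 change of 0.001 with 75th percentile scaling and −0.132 to 0.026 with 1 array left out, and Uhrf1 0.021 and −0.126 to 0.037. The difference of Uhrf1 and Dnmt1 was 0.020 without between-array normalization and −0.098 to 0.027 with 1 array left out.

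Whether the replicate numbers pair the plates is not settled. Deviations of same-numbered plates correlated at 0.311, 0.309 and −0.03. Replicates 1 and 2 of either group correlated best with their own number, and replicate 3 of either group did not. With the replicate block, 2634 probes were higher and 2996 lower, with 2 higher and 7 lower among the methylation genes, where Uhrf2 probe 4 had an adjusted p of 0.0465.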
